A study of Mus musculus with 12 samples.

Results

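The 121 genes described here encode type 2 vomeronasal receptors (Vmn2r) of the mouse. They were taken as the protein-coding genes of RefSeq GRCm38.p6 on chromosomes 1 to 19 that start after the first 3 Mb and whose symbol is Vmn2r followed by digits, out of 20560 protein-coding genes under the same limits. Of 126 such symbols, 3 belonged to pseudogenes (Vmn2r125, Vmn2r127 and Vmn2r128), Vmn2r121 lies on X and Vmn2r122 is placed in the first 3 Mb of chromosome 4, so these were not members. The genes were set against a list of 28210 domains of H4K20me3, trimethylated lysine 20 of histone H4. The marked chromatin came from ES cells of the line dTKO, with the genotype Suv39h1fl/fl, Suv39h2-/- and Setdb1fl/fl in every group. ChIP-seq libraries were made at 0, 12, 24 and 48 h of auxin (100 μg/ml) and dTAG13 (0.5 μM), 3 replicates at each of these 4 times. The 0 h samples carry the same treatment label as the rest, and the labels do not say which proteins the 2 compounds act on. A list of domains gives no expression, so the cell type could not be checked against its markers. The domain list names no sample and gives no signal, so nothing below is a change over time, no error between replicates exists, and all values describe that 1 list. Where counts are set side by side they carry no test.

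Type 2 vomeronasal receptors are G protein-coupled receptors with a large extracellular domain. Sensory neurons in the basal layer of the vomeronasal organ display them and use them to detect peptide and protein pheromones. Their genes arose by tandem duplication and stand in clusters, mixed with many pseudogenes, and ES cells are not known to use them. H4K20me3 is written by the Suv4-20h enzymes, which are brought to chromatin by HP1 bound to trimethylated lysine 9 of histone H3, the product of the Suv39h and Setdb1 enzymes named in the genotype.

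The members lay on 8 chromosomes, with 52 on chromosome 7 and 31 on chromosome 17. Neighbours within 200 kb were joined, which gave 29 clusters, 21 of them with 2 or more receptors (113 genes) and 8 with a single one. The widest distance inside a cluster was 187 kb, between Vmn2r74 and Vmn2r75. The narrowest between clusters was 217 kb, between Vmn2r103 and Vmn2r104. Gene bodies, from annotated start to end with introns, had a median length of 24.7 kb, from 8.40 kb (Vmn2r129) to 142.7 kb (Vmn2r1).

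Of 115 receptors with a RefSeq promoter window (250 bases before to 50 after the start), 3 had a base of that window in a domain. This is 2.61%, beside 1.45% of 16457 protein-coding genes with such a window, and so small a count is not read as a trait of these promoters. The 250 bases before the start of these 3 receptors are shown with capitals for bases inside a domain. For Vmn2r12 and Vmn2r44 a sequence most like it among the members follows, with capitals for the bases that differ. For Vmn2r44 it is that of Vmn2r31, whose window is identical to that of Vmn2r33. These pairs were picked because 1 window met a domain. Most member windows met none, so a copy without domain bases is not a result by itself. The windows are GRCm38.p6 at chr5:109097865-109098114, chr5:109192108-109192357, chr7:8383239-8383488, chr7:7399628-7399877 and chr17:20048206-20048455, all on the minus strand.
Vmn2r12: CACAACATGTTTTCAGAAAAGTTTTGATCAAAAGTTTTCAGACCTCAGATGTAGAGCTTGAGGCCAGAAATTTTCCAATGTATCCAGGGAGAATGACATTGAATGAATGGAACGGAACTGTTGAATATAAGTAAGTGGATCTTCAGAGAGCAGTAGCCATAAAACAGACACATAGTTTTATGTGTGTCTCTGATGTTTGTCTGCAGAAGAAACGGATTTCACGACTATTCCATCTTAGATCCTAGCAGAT
Vmn2r13: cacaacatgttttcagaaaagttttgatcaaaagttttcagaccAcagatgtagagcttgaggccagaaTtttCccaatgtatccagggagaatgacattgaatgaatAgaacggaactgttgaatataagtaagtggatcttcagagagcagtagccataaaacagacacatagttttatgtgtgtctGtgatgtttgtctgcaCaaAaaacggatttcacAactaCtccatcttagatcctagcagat
Vmn2r44: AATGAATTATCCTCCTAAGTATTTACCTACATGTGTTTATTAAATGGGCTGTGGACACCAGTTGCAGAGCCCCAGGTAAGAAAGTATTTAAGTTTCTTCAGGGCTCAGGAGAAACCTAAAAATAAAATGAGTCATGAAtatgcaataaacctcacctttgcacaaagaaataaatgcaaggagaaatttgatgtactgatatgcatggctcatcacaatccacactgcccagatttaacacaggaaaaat
Vmn2r31: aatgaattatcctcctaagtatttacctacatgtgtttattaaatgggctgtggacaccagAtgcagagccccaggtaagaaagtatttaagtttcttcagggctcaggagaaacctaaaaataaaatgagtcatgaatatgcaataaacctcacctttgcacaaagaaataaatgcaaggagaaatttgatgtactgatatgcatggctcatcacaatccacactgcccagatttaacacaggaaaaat
Vmn2r104: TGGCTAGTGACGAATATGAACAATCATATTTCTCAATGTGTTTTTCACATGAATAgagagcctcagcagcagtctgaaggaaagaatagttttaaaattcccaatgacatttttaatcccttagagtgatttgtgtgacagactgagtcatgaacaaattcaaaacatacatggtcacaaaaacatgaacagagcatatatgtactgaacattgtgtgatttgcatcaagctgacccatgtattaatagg

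In Vmn2r12 all 250 bases lay in a domain that ran from 109093351 to 109098600 on chromosome 5, over the start of the gene. The matching stretch of Vmn2r13, with 9 differing bases (96.4% identity), held no domain base, though the body of Vmn2r13 met 3 domains. Vmn2r44 had 138 of its 250 bases, those farthest from the start, in a domain, while its body met none. Its counterpart Vmn2r31 differed by 1 base and held no domain base. The sources used here do not say how reads that fit several copies were placed. Whether that placement bears on these differences between copies was not tested. In Vmn2r104 the 55 outermost bases were inside a domain that continued away from the gene. The letters TATAAA, on either strand, were found in 23.5% of 115 Vmn2r windows and in 13.6% of all 31396 windows of chromosomes 1 to 19. The median share of G and C was 38% in Vmn2r windows and 53% in all windows.

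H4K20me3 domains reached into 39 of the 121 receptor bodies (32.2%), counted when at least 1 base was shared. The same count over all protein-coding genes was 13.9%. Of the 39, 30 met 1 domain and 9 met 2 to 4. Their covered share ran from 2.00% in Vmn2r104 to 56.7% in Vmn2r85, with a median of 11.6% and a median covered length of 4.50 kb. Domains thus took a small piece of most receptors that they met. Only 2 members were covered over at least 50% of the body, Vmn2r85 and Vmn2r11 (0.642% of all protein-coding genes were), and 17 of the 39 were covered over less than 10%.

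**Figure D1:**
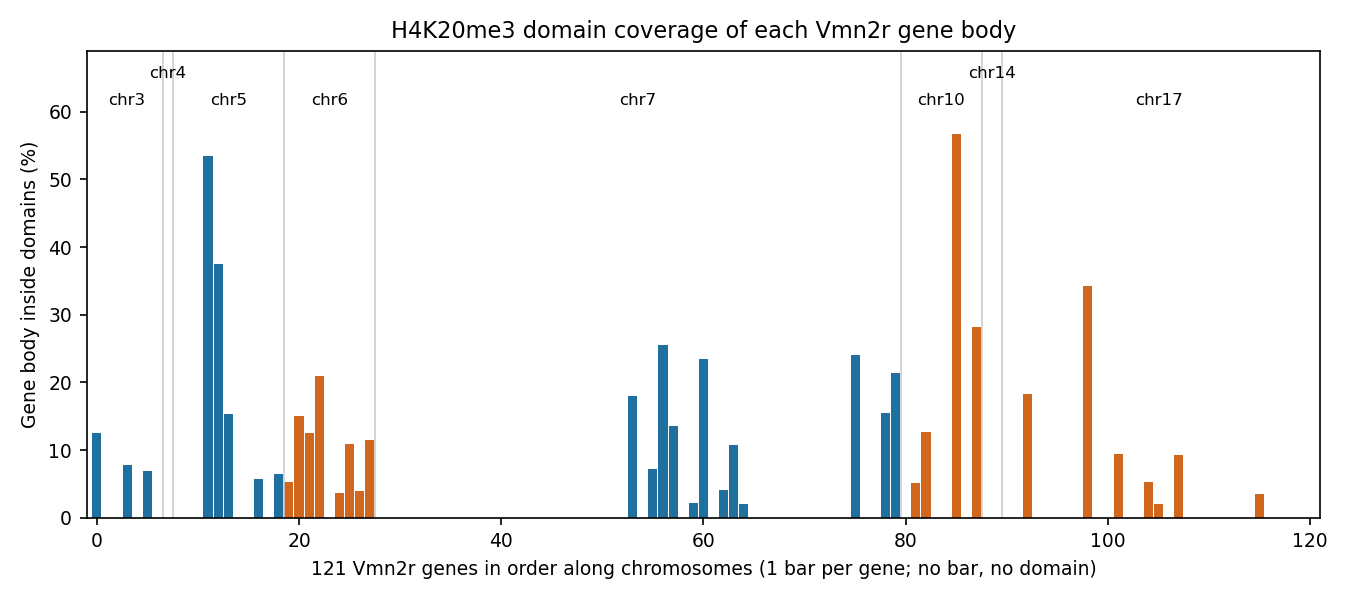
Share of each Vmn2r gene body inside H4K20me3 domains (y axis, percent) for the 121 members in order along the chromosomes (x axis, colours alternate between chromosomes). Bars stand for 39 members, the highest at 56.7% for Vmn2r85, and a long run of chromosome 7 has none.

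The 3 highest covered shares were found in short receptors at a domain's edge. Vmn2r85, on chromosome 10 from 130418261 to 130429612, had 6.44 kb of its 11.4 kb in a domain of 12.5 kb that ran past its end. Vmn2r11, on chromosome 5 from 109046873 to 109059452, had 6.73 kb of 12.6 kb (53.5%) in a domain of 13.8 kb that also crossed its end. Vmn2r12, the next receptor, had 4.51 kb of 12.0 kb covered (37.6%). In the first 2 the covered sequence was at the receptor's end, in Vmn2r12 at its start. Vmn2r97 on chromosome 17 had 11.6 kb (34.2%) and Vmn2r87 on chromosome 10 had 7.20 kb (28.2%), each inside 1 domain that lay wholly within the gene. Vmn2r56 on chromosome 7 had 10.1 kb (25.5%) in 3 domains. Vmn2r75 was covered over 24.1%, Vmn2r60 over 23.5%, Vmn2r79 over 21.4% and Vmn2r22 over 20.9%. Vmn2r60 held the widest domain inside any receptor, 14.4 kb, and the most covered sequence, 18.6 kb in 4 domains.

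Vmn2r1 came next by covered sequence, with 17.8 kb in 4 domains, all of it in the part of this long gene nearest its end (12.5% of the body). Its annotated body, from 64078172 to 64220847 on chromosome 3, encloses that of Vmn2r2 (64115730 to 64170917). All 4 domains begin past Vmn2r2, on the side of Vmn2r3. Between 10 and 20% were Vmn2r91, Vmn2r53, Vmn2r78, Vmn2r13, Vmn2r20, Vmn2r57, Vmn2r82, Vmn2r21, Vmn2r27, Vmn2r25 and Vmn2r63. Below that stood Vmn2r100, Vmn2r106, Vmn2r4, Vmn2r55, Vmn2r6, Vmn2r18, Vmn2r16, Vmn2r103, Vmn2r19, Vmn2r81, Vmn2r62, Vmn2r26, Vmn2r24, Vmn2r114, Vmn2r59, Vmn2r126 and Vmn2r104. Receptors of family C (Vmn2r1 to Vmn2r7), which are known to be co-expressed with other type 2 receptors, met a domain in 3 of 7 cases, and the other members in 36 of 114 (31.6%).

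By chromosome, the receptors of chromosome 6 met domains most often, 8 of 9. On chromosome 10 it was 4 of 8, on chromosome 5 it was 5 of 11 and on chromosome 3 it was 3 of 7. Chromosomes 7 and 17, which hold most members, had 12 of 52 and 7 of 31. Neither of the 2 receptors of chromosome 14 met one, nor did Vmn2r129 on chromosome 4. Body length differed between these chromosomes as well. It ran from 28.2 to 40.9 kb on chromosome 6, and was 8.53 and 9.33 kb on chromosome 14 and 8.40 kb for Vmn2r129. Shares over all genes of each chromosome were not computed, so these counts are not read as an effect of the chromosome.

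Longer receptors met domains more often, as did longer genes of other kinds. In the class of members from 8.40 to 16.9 kb, 3 of 30 met a domain (10%), beside 5.13% of 3508 other protein-coding genes of that length. From 16.9 to 24.7 kb the shares were 13.3% of members and 8.00% of others. From 24.7 to 33.4 kb they were 43.3% (13 of 30) and 10.8%, and above that 61.3% (19 of 31) and 22.2%. In each class the receptors had the higher share. Over the middle range of member length, 11.3 to 40.9 kb, 31 of 97 members met a domain (31.96%), beside 9.01% of 6929 other protein-coding genes. In that range domains covered 5.03% of the receptor sequence and 1.43% of the other genes' sequence. The covered share did not differ alike in every class: from 16.9 to 24.7 kb it was 1.41% in members and 1.32% in others, and in the other 3 classes it was 4.70%, 4.37% and 9.08% in members and 1.27%, 1.35% and 1.73% in others.

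**Figure D2:**
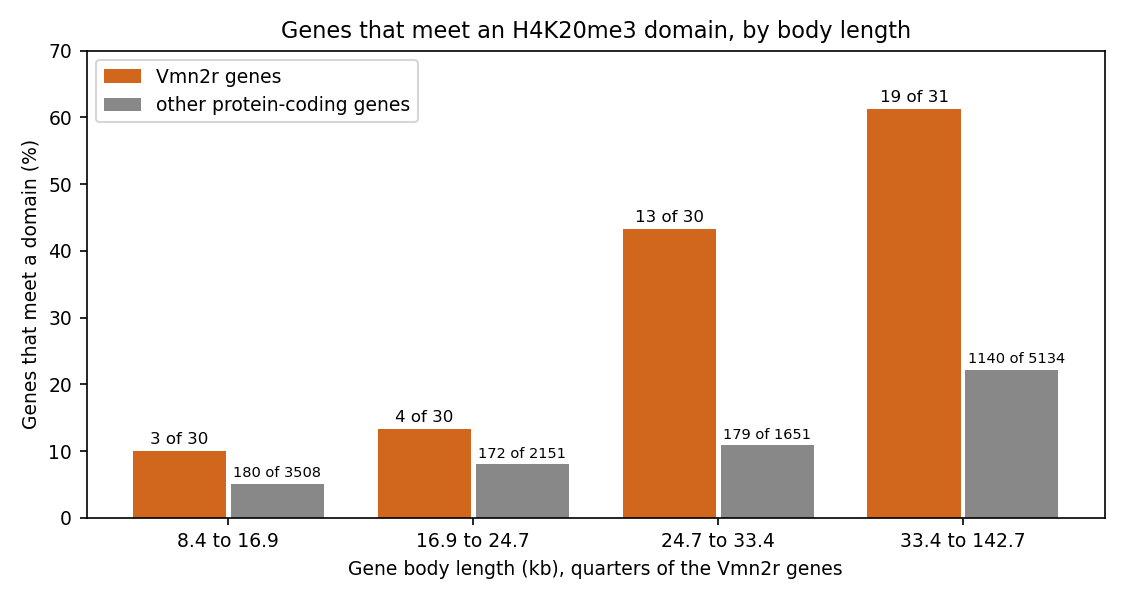
Share of genes that meet an H4K20me3 domain (y axis, percent) in 4 classes of body length (x axis, kb, set so that the classes hold nearly equal numbers of the 121 Vmn2r genes), for Vmn2r genes and other protein-coding genes; numbers above bars are genes that meet a domain of all in the class. The Vmn2r share rises from 10% to 61.3%, that of other genes from 5.13% to 22.2%.

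Most domain sequence in the clusters lay between the receptors. Over the 21 clusters with 2 or more receptors, 183.5 of 2976 kb of receptor bodies were in domains (6.17%), beside 859.3 of 5970 kb between them (14.4%), a ratio of 2.33. Coverage was higher between receptors than in their bodies in 18 of the 21 clusters, lower in 2, and 0 for both in 1. The difference, between minus bodies, had a median of 6.42 percentage points and ran from -14.1 to 47.6. Bodies and the sequence beside them share a cluster, so each cluster is its own comparison, but clusters are not replicates.

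**Figure D3:**
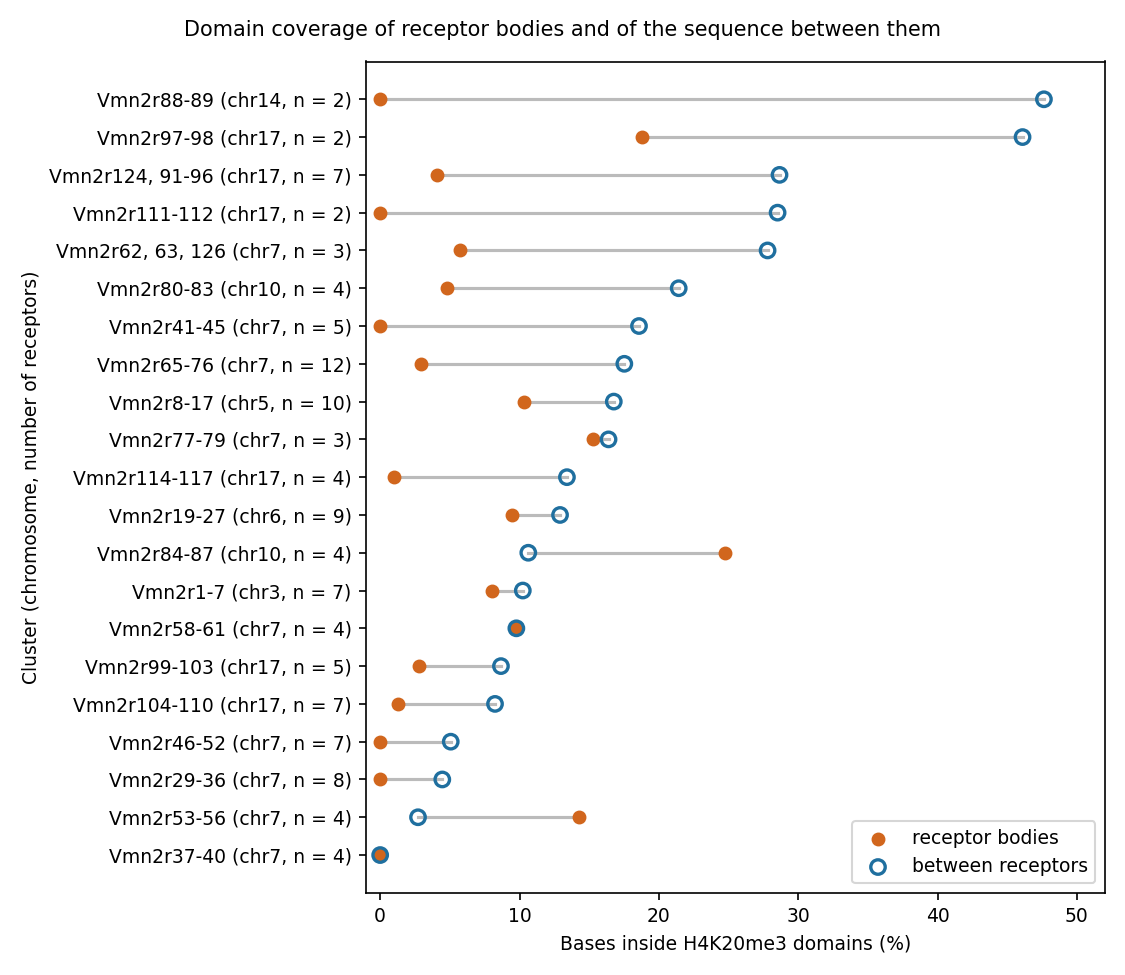
Bases inside H4K20me3 domains (x axis, percent) in receptor bodies (filled) and in the sequence between receptors (open) for the 21 clusters with 2 or more receptors (y axis, sorted by the open symbol). The open symbol is to the right in 18 clusters; the order is turned in Vmn2r84-87 and Vmn2r53-56, and both are at 0 in Vmn2r37-40.

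This order was not particular to these receptors. When all protein-coding genes were joined by the same rule, 1.80% of their bodies and 6.27% of the sequence between them lay in domains, with the sequence between genes higher in 686 of 970 clusters. Vmn1r genes, the type 1 vomeronasal receptors, had 3.89% in bodies and 11.9% between them, and olfactory receptor genes (Olfr) had 2.98% and 9.21%. Vmn2r clusters thus had the highest coverage of these families in both compartments. Their bodies, at a median of 24.7 kb with introns, are far longer than those of Vmn1r and Olfr genes, so the body values compare unlike sequence. Single genes are another matter: 10 of 228 Vmn1r genes (4.39%) and 31 of 1099 Olfr genes (2.82%) met a domain, but their median body lengths were 0.924 and 0.951 kb.

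Vmn2r clusters as a whole were denser in domains than the autosomes. They spanned 9.16 Mb and held 214 domains, 23.4 per Mb, that covered 11.5% of the span. On chromosomes 1 to 19 after the first 3 Mb there were 10.7 domains per Mb and 4.24% coverage. The 200 kb on either side of each cluster, which neighbouring clusters can share, was covered over 10.0%, and 15 of the 29 clusters were above their own flanks. In all, 22 of 29 clusters met a domain, 20 of the 21 with 2 or more receptors and 2 of the 8 single receptors (Vmn2r18 and Vmn2r57). That share is near the background: of the clusters of all protein-coding genes, 1063 of 1395 met a domain, as did 15 of 20 Vmn1r and 44 of 60 Olfr clusters.

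Of the 214 domains, 159 lay wholly between receptors, 48 wholly inside one and 7 across a receptor's edge. Domains in clusters had a median width of 3.15 kb (quartiles 1.95 and 7.05 kb), beside 2.85 kb (1.80 and 4.65 kb) for all autosomal domains that do not begin at the first base of a chromosome. More of them were wide, with 27 (12.6%) over 10 kb, beside 6.61% of the autosomal domains. The 5 widest all stood between receptors: 28.2 kb between Vmn2r68 and Vmn2r69, 25.5 kb between Vmn2r43 and Vmn2r44, 20.1 kb between Vmn2r62 and Vmn2r63, 19.4 kb between Vmn2r82 and Vmn2r83, and 18.5 kb between Vmn2r95 and Vmn2r96. Most domains between receptors, 132 of 159, met no annotated gene of any kind, and 18 met a pseudogene. Sequence between receptors was covered over 14.4% as a whole and over 15.1% without other annotated genes. The share of that sequence free of annotated genes was not computed, so the counts are not read as a preference.

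The largest cluster, Vmn2r65 to Vmn2r76 on chromosome 7 (84940169 to 86246201), held the most receptors. It had 12 receptors and 34 domains, and 194.6 kb of the 1110 kb between receptors was in domains (17.5%), the most of any cluster. Only Vmn2r75 among its receptors met a domain, and bodies were covered over 2.91%. On chromosome 17, the cluster of Vmn2r124 and Vmn2r91 to Vmn2r96 (18049484 to 18598157) had 28.7% between receptors and 4.06% in bodies, where Vmn2r91 alone met domains. The next cluster along the chromosome, Vmn2r97 and Vmn2r98, was richer, with 46.1% between receptors and 18.8% in bodies. The clusters after it, Vmn2r99 to Vmn2r103 and Vmn2r104 to Vmn2r110, were poorer, with 8.67% and 8.24% between receptors and 2.76% and 1.27% in bodies. Both stood below their own flanks, at 18.97% and 18.5%.

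Some other large clusters had domains both in and between receptors. In Vmn2r19 to Vmn2r27 on chromosome 6 (123308333 to 124231784), all but Vmn2r23 met a domain, with 9.44% of bodies and 12.9% of the rest covered. No domain of that cluster crossed a receptor's edge. Vmn2r8 to Vmn2r17 on chromosome 5 had 10.3% and 16.8%, with 4 of 10 receptors met. The family C cluster, Vmn2r1 to Vmn2r7 on chromosome 3, had 8.00% and 10.2%. Of its 21.9 kb of covered body sequence, 17.8 kb was in Vmn2r1, whose annotated body encloses Vmn2r2.

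In 2 clusters the bodies were covered more than the sequence between them. Vmn2r53 to Vmn2r56, on chromosome 7 from 12581470 to 12733320, had 14.3% in bodies and 2.72% between. Of its 6 domains, 5 lay inside Vmn2r53, Vmn2r55 or Vmn2r56. The receptors are packed there, with bodies taking 78.2% of the span. Vmn2r84 to Vmn2r87, on chromosome 10, had 24.8% and 10.6%, from only 2 domains, and 1 of these crossed the end of Vmn2r85. The widest contrast the other way was in the pair Vmn2r88 and Vmn2r89 on chromosome 14, with 0% in bodies and 47.6% between them, over 32.4 kb. All 3 of its domains met another protein-coding gene, Gm7247, which stands between the receptors. With other annotated genes taken out, 20 clusters with sequence between receptors remained, and that sequence was covered more than the bodies in 17 of them.

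**Figure D4:**
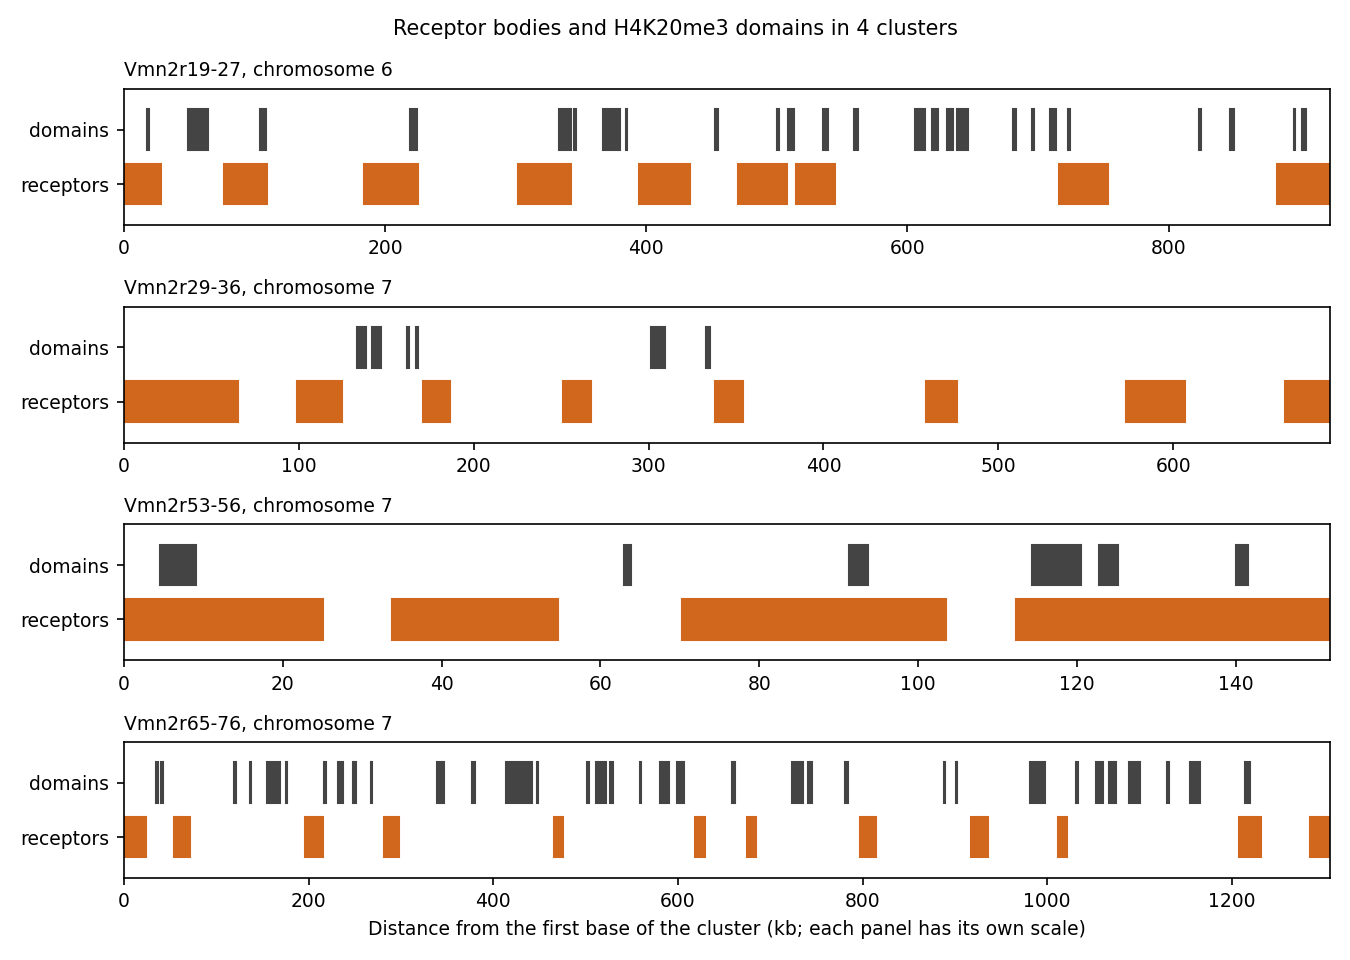
Receptor bodies (lower row of boxes) and H4K20me3 domains (upper row) in 4 clusters, drawn to scale against the distance from the cluster's first base (x axis, kb, a scale of its own in each panel). Domains fall inside 8 of 9 receptors in Vmn2r19-27, in none of 8 in Vmn2r29-36, in 3 of 4 in Vmn2r53-56 and in 1 of 12 in Vmn2r65-76.

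Coverage fell over the last 10 kb before the receptors' starts. For the 115 members with a strand, taken in the direction of the gene, bins of 2.5 kb from 20 to 10 kb before the start were covered over 15.0 to 17.8%. Farther out coverage varied, with 12.0% from 27.5 to 25 kb and 10.5% from 30 to 27.5 kb before the start. Nearer the gene it was 10.0% from 7.5 to 5 kb before the start, 4.93% in the last 2.5 kb before it and 2.21% in the first 2.5 kb of the body. Further into the body it reached 7.41% from 15 to 17.5 kb and 8.73% in the next bin, then 4.95%, over fewer receptors. At the end of the genes the last 2.5 kb of the body stood at 3.74%, the next 2.5 kb at 6.99% and bins from 15 to 30 kb beyond at 14.4 to 18.1%. Coverage did not stay at that level, and was 8.31% from 35 to 37.5 kb past the end. Windows outside bodies leave out all other receptors, and sequence near 2 receptors is counted for both.

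**Figure D5:**
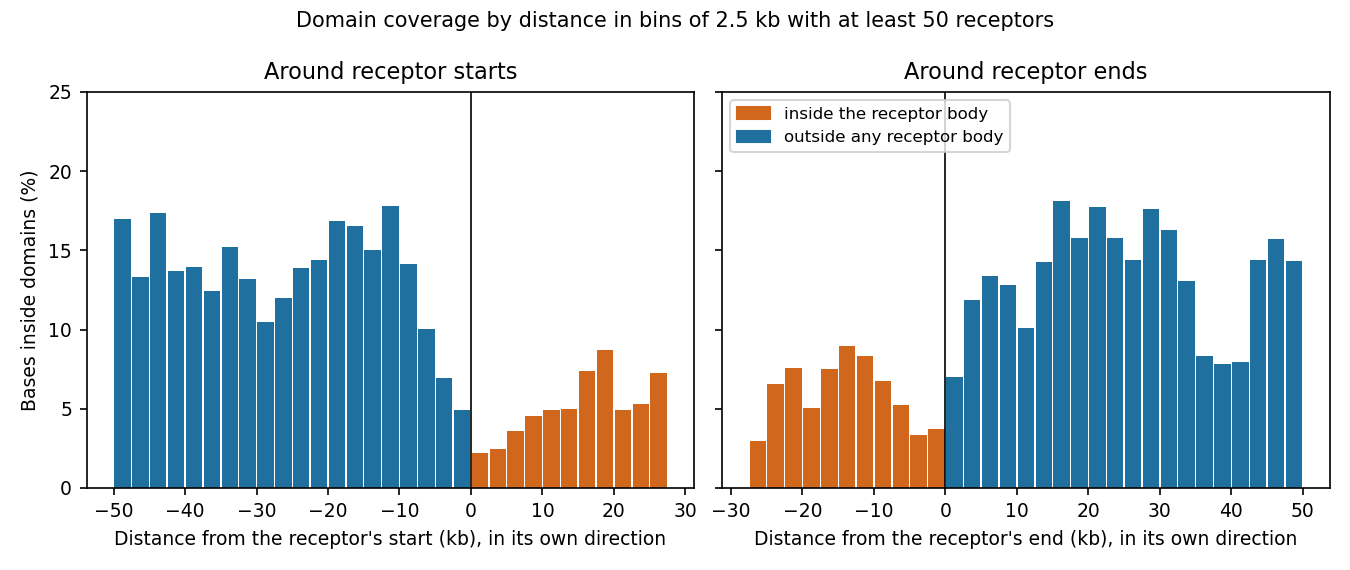
Bases inside H4K20me3 domains (y axis, percent) in bins of 2.5 kb around the starts (left) and ends (right) of 115 Vmn2r genes, in the direction of each gene (x axis, kb); bins with fewer than 50 receptors are left out. Coverage outside receptor bodies is highest, at 18.1%, after the end, and the lowest bin, at 2.21%, is the first of the body.

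Inside the bodies, the part nearest the start was the least covered. With each body cut into 3 equal parts, 2.91% of the part nearest the start was in domains, 6.78% of the middle part and 8.35% of the part nearest the end. Domains were found in these parts of 11, 27 and 23 of the 115 receptors. Among 5534 other genes of like length the values were 1.07%, 1.75% and 1.44%, so their part nearest the start was also the lowest. Chromosome 6 went against this order in places: Vmn2r20, Vmn2r22, Vmn2r25 and Vmn2r26 had all of their domain sequence in the part nearest the start, up to 8.55 kb in Vmn2r22.

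None of the 25 receptors from Vmn2r28 to Vmn2r52, in 5 clusters on chromosome 7, met a domain, while 39 of the other 96 did (40.6%). This group was singled out after its values were seen. The sequence between its receptors was covered over 6.69%, beside 16.4% between the others. Clusters within the group differed: Vmn2r41 to Vmn2r45 had 18.6% between receptors, Vmn2r46 to Vmn2r52 had 5.06%, Vmn2r29 to Vmn2r36 had 4.46%, and Vmn2r37 to Vmn2r40 had none. The last of these stood in a stretch of 1541 kb without any domain, from 8463751 to 10004400, that held 9 receptors. The median distance between neighbouring autosomal domains was 40.5 kb, and 15 of 25715 such distances were at least as long, this one included.

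Receptors of the same group were shorter, and their promoter windows had closer copies. Their median length was 17.6 kb, beside 27.0 kb for the others. The promoter window of each receptor was aligned with that of every other member, and the identity to the closest one had a median of 99.0% in the group (23 windows) and 89.5% in the others (92 windows). At least 98% identity was found for 12 of the 23 and for 11 of the 92. Of those 11 receptors outside the group, 5 met a domain in their body. Among them were Vmn2r62 and Vmn2r126, whose windows are 100% identical to each other. Identity of the bodies, where these domains lay, was not computed. The part of length or of close copies in the result was not tested, and the sources used here do not say how reads that fit several copies were placed.

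Receptors without a domain were often near one. Of the 82 members that met none, 33 had a domain at most 10 kb away. With the members that met a domain counted too, it was 72 of the 121 (59.5%), beside 27.2% of all protein-coding genes counted alike. The median distance of the 82 members that met none was 12.9 kb, beside 53.7 kb for protein-coding genes that met none. Vmn2r44 was the nearest miss at 0.112 kb, followed by Vmn2r89 (0.311 kb), Vmn2r83 (0.496 kb), Vmn2r96 (1.00 kb) and Vmn2r88 (1.20 kb). The farthest were the neighbours Vmn2r37 (741.8 kb), Vmn2r38 (611.0 kb), Vmn2r39 (551.0 kb) and Vmn2r40 (444.0 kb), then Vmn2r36 (328.5 kb).

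Other genes of the vomeronasal system met domains in 10 of 72 cases, close to the 13.9% of all protein-coding genes. Among the protein ligands, 2 of 15 Esp genes, which encode exocrine gland-secreted peptides, did (Esp5, 16.5% covered, and Esp8, 7.76%), and 3 of 22 Mup genes, which encode major urinary proteins (Mup20, 35.0%, Mup21, 4.68%, and Mup5, 2.25%). None of the 9 H2-M genes, whose nonclassical MHC proteins appear with type 2 receptors in the same neurons, met one, nor did Calr4, a calreticulin. Of the signalling genes, Gnao1, the G protein subunit of the basal neurons, was covered over 1.04% by 1 domain and Ano2, a chloride channel, over 2.06% by 4. Robo2 (1.37%) and Kirrel3 (0.622%), which guide sensory axons, are very long genes. Fpr3 was the only 1 of 7 formyl peptide receptor genes with a domain, and this gene of 1.22 kb lay wholly inside it. It stands on chromosome 17 from 17970458 to 17971677, between Vmn2r90 and Vmn2r124.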

How the data were processed

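ChIP-seq of H4K20me3 was made from 12 samples in 4 groups. The deposited file used here is 1 list of domain positions (start and end; no signal, fold or score), called with RSEG per the file name. The submitters' processing notes list deepTools, bedtools, SAMtools 1.1 and Bowtie2 2.3.4.1. What each tool did, the RSEG threshold, the libraries behind the list and the treatment of multiply mapped reads: not given in the sources used here. Depth is unknown, so no counting error can be given. Contig names are those of mm10, which is GRCm38. Domain edges fall on multiples of 150 bases (28209 of 28210 domains), which limits the precision of each edge.

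Gene positions, strand and promoter sequences came from RefSeq tables of GRCm38.p6. Promoter windows matched 115 of the 121 members by gene ID; the other 6 were left out of steps that need a strand. Overlapping windows on opposite strands were reverse complements in 1657 of 1657 cases, so sequences read in the direction of the gene. Exons were not used here. Bodies were merged within a cluster, and the sequence between them is the rest of the span from first start to last end. Identity is identical columns over all columns of a global alignment. The overlap steps were checked on simulated data against a base-by-base count, with 0 mismatches over 300 genes.

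Planned comparisons of the 4 times were not run, since the list holds no value per sample. Named were all members that meet a domain (the 10 most covered with values), clusters of 5 or more, the cluster with most domain sequence between receptors, the 5 widest domains, the 5 nearest and farthest members without one, and genes of the vomeronasal list that meet one. Other names were chosen after values were seen. Members and lists were chosen with earlier results of these data known. Alternatives were other domain sets, cluster distances, definitions of a body and of the sequence between bodies. Python 3.11.15, numpy 2.4.6, pandas 2.3.3, Biopython 1.88 and matplotlib 3.10.9 were used.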

Additional observations from a re-analysis of the deposited data

How the results depend on the processing

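No paired analysis was possible because the domain list names no sample, and for the same reason no replicate could be left out. Summed over clusters, coverage stayed higher between receptors than in bodies under all alternatives tried. Counted by cluster, it was higher between receptors in 18 of 28 with neighbours within 100 kb and in 12 of 14 within 500 kb. With domains of the median width or more it was higher there in 16 of 21, beside 18 of 21 in the main setting. Keeping only domains of the median width or more, 22 receptors met a domain, and coverage was 4.59% in bodies and 12.1% between. At 50% of the body covered, 2 did. With Vmn2r pseudogenes counted as bodies (among them Vmn2r-ps130, annotated as protein-coding), 61 of 250 did, bodies stood at 7.42%, and the sequence between was higher in 14 of 24 clusters. Between receptors, coverage was 15.7% with domains closer than 5 kb merged, 12.0% and 13.1% with neighbours within 100 and 500 kb, and 15.1% without other annotated genes, where 20 clusters were left and the sequence between receptors was higher in 17. Without Vmn2r28 to Vmn2r52, chosen after seeing the data, bodies stood at 7.47% and the rest at 16.4%. The cause of these shifts was not tested. Depth is unknown, and 1 list gives no error between replicates.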

Other observations

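Vmn2r pseudogenes, taken by symbol on the same chromosomes, met a domain in 22 of 128 cases. No share over all pseudogenes was computed, and their annotated bodies ran from 141 to 211881 bases. The count is therefore not read as a trait of these pseudogenes. The most covered were Vmn2r-ps116, a fragment of 162 bases that lay wholly in a domain, Vmn2r-ps26 on chromosome 5 (78.0% covered, 28214 bases), Vmn2r-ps111 between Vmn2r88 and Vmn2r89 (53.3%) and Vmn2r-ps21 (50.9%). The most covered sequence was in Vmn2r-ps23 on chromosome 5, with 42297 bases in 7 domains (27.6%), and in Vmn2r-ps11 on chromosome 3, with 31050 bases in 8 domains (14.7%). Their annotated bodies, of 153426 and 211881 bases, are longer than any protein-coding member, and that of Vmn2r-ps11 encloses Vmn2r7.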
